A study of Mus musculus with 2 samples.

Results

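The olfactory receptor cluster described here is the interval chr2:86000001-89800000 of the mouse genome (build mm9), the interior of a large array of olfactory receptor (Olfr) genes. It was taken by its coordinates alone and divided into 3800 bins of 1 kb, of which 1111 held no read in either library. Across the genome 2246042 bins held a read. The comparison set was the rest of chromosome 2, made up of the 174948 bins from the first to the last that held a read. Chromatin immunoprecipitation with sequencing (ChIP-seq) had been done on Th2 cells, a kind of helper T cell known for its interleukin 4, grown from CD4+CD62L+ spleen cells of C57BL/6 mice. The cells had been stimulated through CD3 and CD28 for 5 days with 10 ng/ml IL-4 and 2 µg/ml of an antibody to interferon gamma, then rested for 3 days. The H3KAc library was made with an antibody to acetylated lysines of histone H3, and the IgG library with non-specific rabbit IgG, from cells of the same kind. Each was 1 library with no replicate, so no test was possible, and every interval covers counting error only and compares these 2 libraries, not the conditions.

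Olfactory receptors are G protein-coupled receptors that bind odorants in the sensory neurons of the nose. Their genes form one of the largest families in mammals and stand in long arrays, in which each neuron transcribes a single allele and keeps the others silent under heterochromatin marks. Outside the nose, T cells included, such arrays are generally regarded as silent, while acetylation of histone H3 marks active promoters and enhancers.

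In the RefSeq annotation of another build (GRCm38.p6), the largest block of olfactory receptor genes on chromosome 2 runs from Olfr987 to Olfr1274 and lies between Lrrc55 and Ptprj. With at most 5 other genes in a row, the block holds 293 Olfr genes, 222 of them protein coding and 71 pseudogenes. It encloses 3 other protein-coding genes, Fads2b, Pramel7 and Pramel6. The annotation is not on the build of the reads, so no gene was placed at a position of the data and no bin below is named by a gene.

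The base composition of the block was read from RefSeq promoter windows (GRCm38.p6), using the 250 bases before each annotated start. Of the 222 protein-coding Olfr genes, 186 (83.8%) had such a window, 187 windows in all. Their median GC content was 30.8% (10th to 90th percentile 24% to 36.4%), against 52.8% (40.4% to 70%) in the 2660 windows of the other genes of chromosome 2. No CG pair was found in 46.0% of the Olfr windows, against 6.69% of the other windows of chromosome 2 and 7.65% of those of all other genes. In 69.5% of the Olfr windows the annotated start was an ATG, so these windows lie before the start codon rather than before a known transcription start. In the 57 remaining Olfr windows the median was 32% GC and 38.6% had no CG pair. The sequences below show an Olfr window at the block's median GC content, upstream of Olfr1015 (chr2:85785224-85785473, GRCm38.p6, plus strand). It was chosen among the 57 windows whose start is not an ATG. Beside it is the most upstream window of Ptprj (chr2:90580596-90580845, GRCm38.p6, minus strand), which encodes a receptor tyrosine phosphatase and is the nearest protein-coding gene after the block. Capitals mark CG pairs, a motif that reads the same on both strands. The first window has 0 and the second 34, and their GC contents are 30.8% and 79.2%. The Ptprj window is not typical of its set. The median number of CG pairs was 1 in the Olfr windows and 6 in the other windows of chromosome 2 (90th percentile 26).
Olfr1015: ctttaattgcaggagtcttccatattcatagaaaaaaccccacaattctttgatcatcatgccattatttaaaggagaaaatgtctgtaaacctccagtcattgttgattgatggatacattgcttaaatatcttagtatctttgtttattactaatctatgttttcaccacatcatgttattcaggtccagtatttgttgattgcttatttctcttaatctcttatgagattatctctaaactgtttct
Ptprj: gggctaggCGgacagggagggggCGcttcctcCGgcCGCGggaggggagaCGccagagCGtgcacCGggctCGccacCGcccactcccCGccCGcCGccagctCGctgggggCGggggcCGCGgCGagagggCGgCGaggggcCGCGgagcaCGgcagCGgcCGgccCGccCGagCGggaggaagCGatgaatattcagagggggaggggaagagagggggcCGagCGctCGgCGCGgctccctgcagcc

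The H3KAc library held 21845451 reads of 35 bases at 19711169 distinct positions, and the IgG library 7626703 reads at 1897666 distinct positions. A distinct position is a chromosome, 5' end and strand, counted 1 time however often it was read, and moved 100 bp along its strand into the fragment. Levels are given as distinct positions per 1000000 of the library (RPM), so 1 position is worth 0.0507 RPM in H3KAc and 0.527 RPM in IgG.

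Both libraries were low across the array. H3KAc was 0.113 RPM per kb there (95% interval 0.110 to 0.115, from 8449 positions), against 0.440 RPM per kb in the rest of chromosome 2 (0.4397 to 0.4411). The array level was thus 0.256 times that of the rest (0.251 to 0.262). IgG was 0.132 RPM per kb in the array (0.124 to 0.141, from 951 positions) and 0.440 RPM per kb in the rest (0.438 to 0.443), or 0.299 times as high (0.281 to 0.319). The background library therefore fell nearly as far as the acetylation library, and most of the H3KAc deficit was shared with IgG. What moved both libraries together was not tested. The low GC content given above was measured on gene windows, not on the bins. Neither it nor the share of each bin to which a 35-base read aligns uniquely was measured on mm9.

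With IgG divided out, the array was a little below the rest of its chromosome. The pooled ratio of H3KAc over IgG was 0.855 in the array (0.800 to 0.916) and 0.9999 in the rest of chromosome 2 (0.995 to 1.01). The ratio in the array was 0.855 times that of the rest (0.800 to 0.915). The scaling of a library to its own total holds the ratio over most of the genome near 1, so a ratio near 1 is not a level of acetylation. The interval treats IgG positions as independent, although they lay in groups. Of the 951 IgG positions in the array, 46.1% had another within 300 bp, against 25.8% of the 760 H3KAc positions left after H3KAc was thinned to the IgG depth. The intervals on ratios are for that reason too narrow. With plus-strand positions alone the array ratio was 0.919 (0.832 to 1.02), so its interval then included 1, and with minus-strand positions alone it was 0.802 (0.732 to 0.880).

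**Figure D1:**
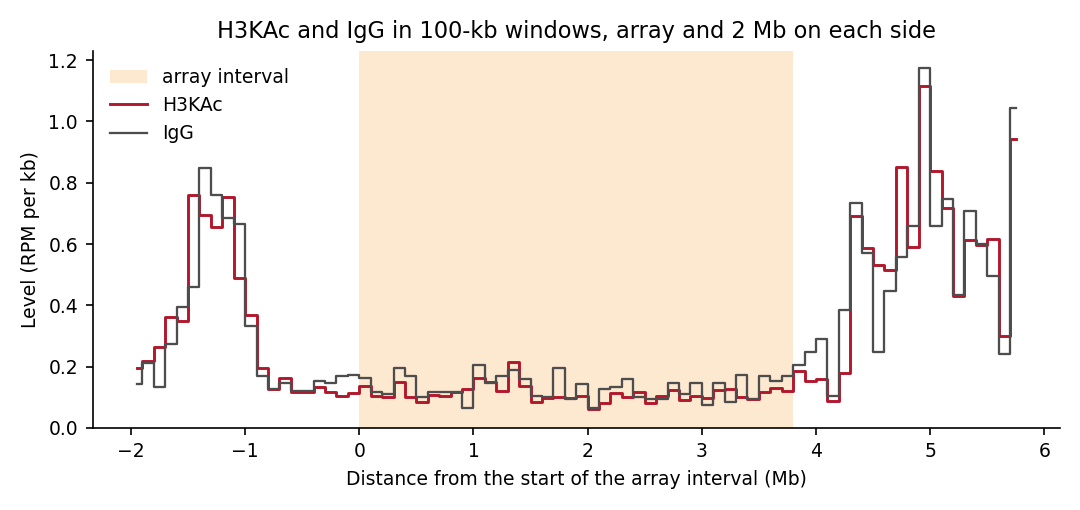
Levels of H3KAc (red) and IgG (grey) in RPM per kb (vertical axis) in 100-kb windows against the distance in Mb from the start of the array interval (shaded). Both lines stay at or below 0.214 RPM per kb inside the array. H3KAc remains in that range for 9 further windows on the left and 5 on the right. In those on the right IgG already reaches 0.385 RPM per kb.

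Single bins of the array held few reads. The median bin had 1 H3KAc position (25th to 75th percentile 0 to 3), against 6 (2 to 11) in the rest of chromosome 2. The 99th percentile was 12 positions in the array and 47 in the rest. No H3KAc position was found in 1197 array bins (31.5%), against 10.4% of the bins of the rest, and neither library had a position in 29.2% of array bins, against 9.75%. IgG was empty in 82.6% of array bins and in 62.5% of the others. At equal library depth, with H3KAc thinned to 1897666 positions, 83.3% of array bins were empty in H3KAc (760 positions) and 82.6% in IgG (951 positions). In the rest of the chromosome 55.0% were empty in H3KAc and 62.5% in IgG. The empty share also depends on how closely positions cluster. The variance over mean of bin counts was 1.22 in thinned H3KAc and 1.72 in IgG in the array, and 2.30 and 4.53 in the rest. Similar shares are thus not similar levels.

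**Figure D2:**
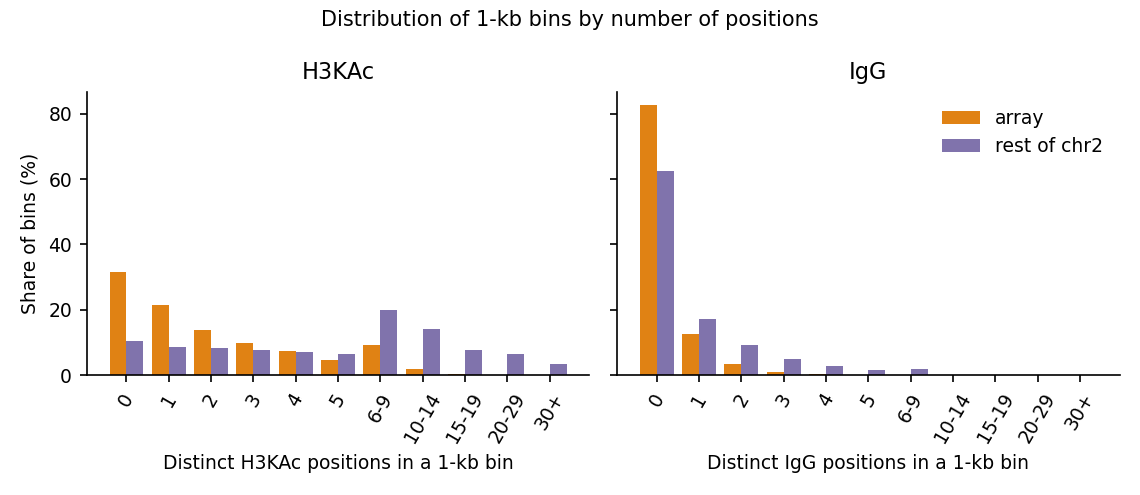
Share of 1-kb bins (vertical axis, %) by the number of distinct positions in the bin (horizontal axis), for H3KAc (left) and IgG (right), in the array (orange) and in the rest of chromosome 2 (violet). Array bins pile up at 0 to 2 H3KAc positions and none reaches 30, while 3.38% of the other bins do.

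Against the IgG count of the same bin, no array bin had the depth to be called enriched. Bins with 5 positions or more, both libraries summed, entered the calling. Such a bin counted as enriched if the 95% interval of its ratio lay wholly above 2, and as under-represented if it lay wholly below 0.5. Of the 3800 array bins, 707 (18.6%) had enough positions, against 60.3% of bins in the rest of chromosome 2. None was enriched, where the percentage called in the rest of the chromosome was 0.0957%. With no IgG position, a bin needs 79 H3KAc positions for this call and 41 for a lower bound above 1. The highest array bin had 29, so neither call was within reach in any bin of the array, and nothing is read from the count of 0. In the rest of the chromosome 5907 bins (3.38%) held more than 29 positions and 692 (0.396%) held 79 or more. Under-represented bins numbered 7 in the array, or 0.990% of those tested, where the percentage called in the rest of the chromosome was 0.572%. Each of them rested on 2 to 7 H3KAc and 4 to 6 IgG positions. With bounds of 1 in place of 2 and 0.5, no array bin was higher in H3KAc, where 0.704% were in the rest, and 27 (3.82%) were lower, where 3.78% were. When IgG was summed over 11 neighbouring bins, 9 array bins (1.27%) were enriched, against 2.18% in the rest, and 10 (1.41%) were under-represented, against 1.56%.

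Of the 5 bins with the most H3KAc, 4 lay close together. The highest, chr2:87040001-87041000, had 29 H3KAc positions or 1.47 RPM (0.985 to 2.11) and 4 IgG positions or 2.11 RPM. The next, chr2:87175001-87176000, had 22 H3KAc positions or 1.12 RPM (0.699 to 1.69) and no IgG position. The bin chr2:87234001-87235000 followed with 21 H3KAc and 3 IgG positions. Thus 4 of the 5 bins highest in H3KAc fell within 400 kb, the other member of this group being chr2:87326001-87327000 with 19 H3KAc positions and no IgG position. These 400 kb are the stretch of the highest windows given below, whose counts include these bins. How often the highest bins would lie so close was not tested. The remaining bin of the 5, chr2:89627001-89628000, had 20 H3KAc positions and 9 IgG positions, the most IgG of any array bin, and a ratio of 0.214 (0.0931 to 0.534). The highest lower bound of the ratio among array bins was 0.527, at the bin from 87175001. The lower bounds of the next 4, from 87326001, 87382001, 87375001 and 88242001, were 0.449, 0.449, 0.345 and 0.345, with 15 to 19 H3KAc positions and no IgG position in each. The next bins by IgG, from 87243001 and 89360001, had 6 IgG positions each and 7 and 5 H3KAc positions.

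Over larger distances the array stayed low without a break. Its 38 windows of 100 kb ranged from 0.0629 to 0.214 RPM per kb in H3KAc, with a median of 0.105, against a median of 0.350 over 1748 windows of the rest of chromosome 2 (5th to 95th percentile 0.107 to 1.08). Of those other windows 30.9% lay below the highest array window and 4.63% below the median array window. IgG in the array windows ranged from 0.0632 to 0.206 RPM per kb, with a median of 0.129, against a median of 0.290 in the other windows. The spread between windows, as the coefficient of variation, was 23.6% for H3KAc and 28.97% for IgG in the array, and 73.0% and 90.5% in the rest.

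The highest window was chr2:87300001-87400000, with 421 H3KAc positions (0.214 RPM per kb, 0.194 to 0.235) and 36 IgG positions. The windows from 87000001 and from 87100001 came next, with 320 and 295 H3KAc positions and 39 and 28 IgG positions. Together with the window between them, these made a stretch of 400 kb at 0.162 RPM per kb in H3KAc (0.153 to 0.171) and 0.178 RPM per kb in IgG, a ratio of 0.910 (0.762 to 1.09). The stretch was thus high for the array in both libraries, and its H3KAc remained below the median window of the rest. The lowest windows were those from 88000001, 88500001 and 88100001, with 124, 158 and 161 H3KAc positions and 12, 18 and 24 IgG positions. The first 1900 kb of the array had 0.121 RPM per kb in H3KAc (0.117 to 0.124) and the last 1900 kb 0.105 (0.102 to 0.108), with ratios of 0.872 (0.795 to 0.958) and 0.837 (0.759 to 0.925). H3KAc counts of array bins varied more than counting error gives (variance over mean 3.27), which these intervals leave out. Whether the first and last parts differ was not tested.

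The windows also differed in their number of empty bins. Empty H3KAc bins made up 14 to 50 of the 100 bins of an array window, with a median of 32, against a median of 6 in the other windows. Across the 38 windows, H3KAc went down as empty bins went up (Pearson r -0.76, Spearman rho -0.78), a description only, since both come from the same counts. H3KAc and IgG positions rose together over the 38 windows (r 0.57, rho 0.51), less tightly than over the 1748 other windows (r 0.90, rho 0.94), where levels span a wider range. These points share the libraries, and their base composition was not measured. The longest run of bins without an H3KAc position was chr2:89052001-89087000, 35 kb with no IgG position either. Next came chr2:87741001-87753000 (12 kb) and chr2:86179001-86187000 (8 kb), each with 2 IgG positions. Runs of 5 kb or more occurred 26 times, or 6.84 per 1000 kb, against 3.53 per 1000 kb in the rest of the chromosome.

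In single windows the ratio of H3KAc over IgG was known only within a wide counting error. It ranged from 0.518 to 1.98 with a median of 0.851, against a median of 1.05 in the rest of chromosome 2, and it was below 1 in 29 of 38 array windows (76.3%), against 42.9% of the others. In 35 of the 38 windows the 95% interval held the pooled array ratio of 0.855. Intervals this wide, such as 0.550 to 1.98 in the window from 88000001, do not show that the windows share a ratio. The interval lay wholly below 1 in 4 array windows (10.5%), where the percentage called in the rest of the chromosome was 13.7%, and wholly above 1 in 1 (2.63%), where it was 20.3%. Array windows held 12 to 39 IgG positions, against a median of 55 elsewhere, so that fewer of their intervals could exclude 1 for the same ratio.

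**Figure D3:**
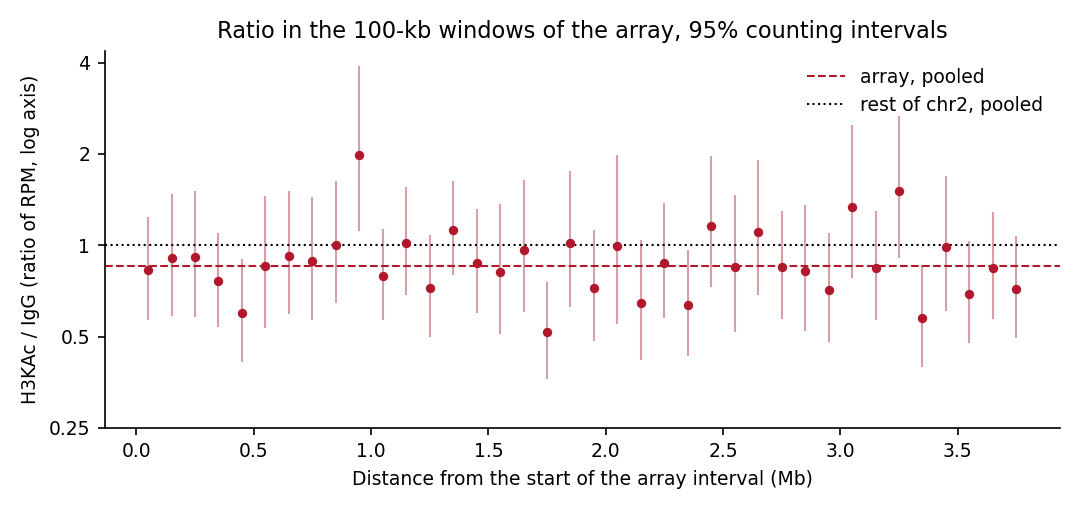
Ratio of H3KAc over IgG (log axis) in the 38 windows of 100 kb across the array, against the distance in Mb from its start. Bars are exact 95% intervals for counting error, and the lines are the pooled ratios of the array (0.855, dashed) and of the rest of chromosome 2 (0.9999, dotted). Most points lie below 1, and 35 of the 38 bars hold the dashed line.

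The low level did not end at the borders of the interval. The interval is the interior of a large array of Olfr genes, so windows next to it may hold genes of the same array. Neither these windows nor the rest of chromosome 2 were cleared of Olfr genes. To the left, 9 further windows, down to 85100001, stayed at or below the highest array window, with 0.132 RPM per kb in H3KAc, 0.148 in IgG and a ratio of 0.894 (0.785 to 1.02). To the right, 5 further windows, up to 90300000, did so, with 0.153 RPM per kb in H3KAc, 0.247 in IgG and a ratio of 0.620 (0.540 to 0.715). In the right-hand stretch IgG stood further above its array level than H3KAc did. The whole low stretch spanned 5200 kb, from 85100001 to 90300000, with a ratio of 0.824 (0.780 to 0.871). It was delimited after its levels were seen.

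Both libraries rose across its edges, and on the right H3KAc rose more than IgG. The edges were set by the H3KAc level, so the rise in H3KAc there follows from the rule. On the right, the last low window held 353 H3KAc and 73 IgG positions, against 1361 and 139 in the window from 90300001. The ratios of these windows were 0.466 and 0.943. On the left, the first low window held 382 H3KAc and 32 IgG positions, against 726 and 63 in the window from 85000001. Beyond the low stretch and within 2 Mb of the array, H3KAc was 0.465 RPM per kb on the left and 0.663 on the right, with ratios of 1.04 (0.975 to 1.12) and 1.07 (1.02 to 1.12). Single bins of the array reached 29 H3KAc positions, against 137 in the part beyond on the left and 133 in that on the right. The share of bins without an H3KAc position was 31.5% in the array, against 6.55% on the left and 0.667% on the right.

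Among segments of its own width, the array was the lowest of its chromosome in H3KAc. Chromosome 2 was divided outwards from the array into 46 segments of 3.8 Mb. The array had 8449 H3KAc positions, and the 45 others had 10182 to 85648. In IgG it was second lowest, with 951 positions, 1 segment being lower at 901. Its highest bin of 29 positions was the lowest maximum of the 46, the others reaching 48 to 628. Its ratio of 0.8553 was the fourth lowest. The 3 lower ratios were 0.496, 0.848 and 0.8551, in segments with 0.136, 0.731 and 0.272 RPM per kb in H3KAc. A ratio near that of the array was thus also found in segments with more H3KAc. Of the 10 other segments lowest in H3KAc, with 0.136 to 0.231 RPM per kb, 9 had ratios above 1, between 1.09 and 1.25, and the tenth had 0.496. All 10 had more H3KAc than the array. Segments as low as the array were found on other autosomes, and there ratios below 1 were common. Of the 19 other segments among the 20 autosomal ones lowest in H3KAc, with 0.0282 to 0.125 RPM per kb, 15 had a ratio below 1, against 37.4% of all other autosomal segments. Their ratios ran from 0.580 to 1.06 with a median of 0.935, and 2 were below that of the array.

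Smaller windows of chromosome 2 were also chosen by their H3KAc level. The ratio was 0.855 in the array, against a pooled 1.01 (0.995 to 1.03) in the 517 windows of 100 kb in the rest of chromosome 2 whose H3KAc lay in the range of the array windows. Choosing instead the 592 windows whose IgG lay in the array's range gave 1.20 (1.18 to 1.22), a choice that favours windows with few IgG reads. Bins with equal IgG counts differed in H3KAc between array and rest. Array bins with no IgG position averaged 1.86 H3KAc positions, against 5.28 in the rest, and those with 2 IgG positions averaged 4.80 against 13.8. Over the 4 IgG classes the array mean was 0.321 to 0.354 times that of the rest. IgG was empty in 82.6% of array bins and 62.5% of the others, so an equal count is a coarse match of background. These means are therefore not levels with IgG divided out. The array's ratio of H3KAc over IgG was 0.855 times that of the rest. Array bins grouped by H3KAc had IgG means 0.796 to 1.05 times those of the rest. The lowest quotient was that of the 56 array bins with 11 to 29 positions. Bins with 1 to 2 H3KAc positions averaged 0.181 IgG positions in the array, against 0.183 in the rest, those with 6 to 10 averaged 0.705 against 0.716, and those with 11 to 29 averaged 1.39 against 1.75. Grouping by H3KAc also takes in bins of the rest that are low by chance in a single bin, so these means do not show at which scale the ratios differ.

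**Figure D4:**
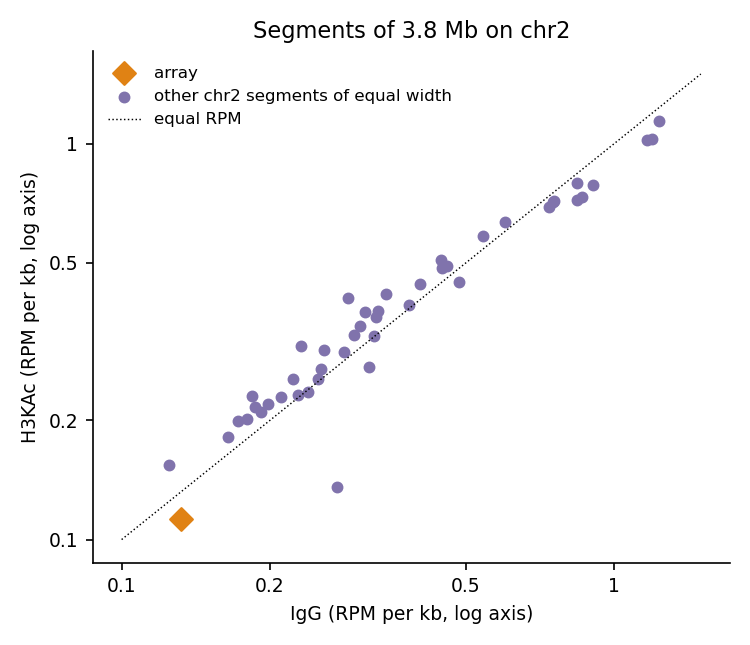
H3KAc against IgG level (RPM per kb, both log axes) for the 46 segments of 3.8 Mb on chromosome 2. The array (orange) is lowest in H3KAc at 0.113 RPM per kb and lies below the line of equal RPM, while 9 of the 10 other segments of this chromosome lowest in H3KAc, all at higher levels than the array, lie above it. Some segments with high levels in both libraries also lie below the line.

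Read starts on opposite strands were spaced in the array much as elsewhere. Pairs of a plus-strand start and a minus-strand start 50 to 100 bp further on were 5.09 times as frequent per bp as pairs 800 to 1000 bp apart in the H3KAc reads of the array (4.69 to 5.51), against 2.67 times in the rest of chromosome 2. In IgG the array pairs were most frequent at 100 to 150 bp, 20.9 times the background (10.1 to 48.5, from 47 pairs and 9 background pairs), and those of the rest at 150 to 200 bp, 5.70 times. The contrast depends on the number of background pairs, which falls with the density of positions, so the array and the rest are not compared in size. The place of the peak, 50 to 100 bp in H3KAc and beyond 100 bp in IgG, was shared by the array and the rest of the chromosome. These intervals count pairs that share a read as independent.

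**Figure D5:**
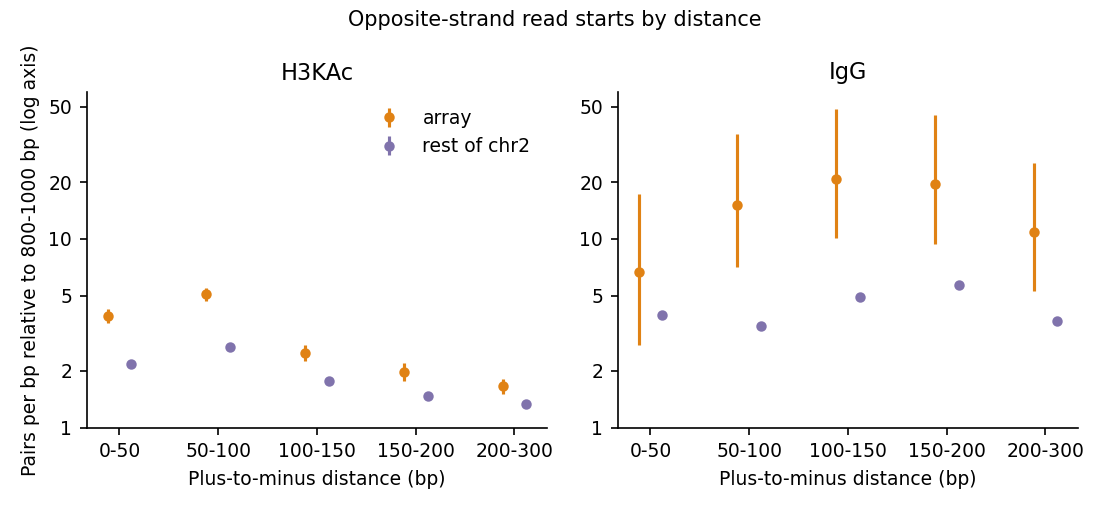
Frequency per bp of opposite-strand pairs by distance, relative to 800 to 1000 bp (log axis), for H3KAc (left) and IgG (right), in the array (orange) and in the rest of chromosome 2 (violet). Bars are 95% counting intervals. In both parts H3KAc peaks at 50 to 100 bp and IgG beyond 100 bp.

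Repeated reads were not concentrated in the array. Inside the array each distinct position had on average 1.07 reads in H3KAc and 3.51 reads in IgG, against 1.19 and 4.23 reads in the rest of chromosome 2. The most reads at a single position in the array were 5 in H3KAc and 22 in IgG, against 2161 and 750 in the rest. With all deposited reads counted, the array's ratio was 0.945 (0.908 to 0.984) and that of the rest 1.02 (1.018 to 1.024), so the difference between them shrank to a factor of 0.926. These intervals count repeats of a position as independent reads and are for that reason too narrow. Plus-strand positions made up 50.1% of H3KAc and 45.8% of IgG positions in the array, and 50.3% and 49.6% in the rest of the chromosome.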

How the data were processed

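Each row of the 2 deposited read files gives the chromosome, the 0-based start and end and the strand of a single aligned read, per the deposited file description, and the remaining columns hold 0. Bowtie and mm9 are named in the submitters' processing notes. The Bowtie version and the rule for reads with several alignments were not given in the sources used here. Deposited positions carry no normalization, so counts, levels and ratios were computed here from the positions. PCR copies carried no molecular identifier, so distinct positions were counted. Ratios have exact conditional binomial (Clopper-Pearson) intervals, levels exact Poisson intervals and ratios of ratios log-scale intervals, all at 95% and for counting error only. Segments with 500 kb or more without reads were left out (10 on the autosomes, 0 on chromosome 2). The bin calls were run on simulated counts in which positions were independent. IgG positions lay in groups here, so the simulation does not show how the calls behave on these data.

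The bins and windows named are the 5 bins with the most H3KAc, the 5 with the highest lower bound of the ratio, the 3 with the most IgG, the 3 longest runs without H3KAc, and the 3 highest and 3 lowest windows by H3KAc. The interval, comparisons and rules were chosen with earlier results of these data known. Computation used matplotlib 3.10.9, pandas 2.3.3, scipy 1.17.1 and numpy 2.4.6 under Python 3.11.15.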

Additional observations from a re-analysis of the deposited data

How the results depend on the processing

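In every alternative run the array was below its comparison set in both libraries, from 0.230 to 0.327 times in H3KAc and from 0.248 to 0.382 times in IgG, and its ratio was below 1. With all reads as deposited, the array was 0.230 (H3KAc) and 0.248 (IgG) times the rest of chromosome 2, the ratios were 0.945 in the array and 1.02 in the rest, their quotient was 0.926, and 1 bin was enriched and 87 under-represented, repeats being counted as independent there. With plus-strand reads, the IgG level was 0.277 times the rest, the array ratio 0.919 with an interval that included 1, the quotient 0.922, under-represented bins 0 and empty bins 47.4%. With minus-strand reads, the IgG level was 0.322 times the rest, the quotient 0.799, under-represented bins 2 and empty bins 47.7%. The H3KAc and IgG levels were 0.277 and 0.324 times those of the other autosomes, 0.283 and 0.329 times those of chromosome 2 without its top 1% of bins, and 0.327 and 0.382 times in covered bins only. Against 2 Mb on each side, H3KAc was 0.265 times as high, and the ratio there was 1.01. This set includes the low windows next to the interval, 9 on the left and 5 on the right, which may hold Olfr genes. Under-represented bins numbered 27 with a bound of 1, 4 with 500-bp bins and 0 with thinned H3KAc; enriched bins numbered 9 with IgG over 11 bins. Empty bins were 51.6% with 500-bp bins and 83.3% with thinned H3KAc, since fewer reads fell in each bin. After seeing the data, the low windows on both sides were added to the array, which gave 0.271 (H3KAc) and 0.329 (IgG) times the rest, and the rest was limited to windows in the array's H3KAc range, which gave it a ratio of 1.01. Other causes of these shifts were not tested. IgG, with 951 positions in the array, limits every ratio.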

Other observations

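Among 618 segments of 3.8 Mb on the autosomes, 5 had fewer H3KAc positions than the 8449 of the array and 27 had fewer IgG positions. The lowest segments were chr14:3004001-6804000 with 2114 H3KAc and 351 IgG positions and chr7:6801001-10601000 with 4658 and 613, with ratios of 0.580 and 0.732, in which 76.7% and 71.6% of bins had no H3KAc position. Next came chr5:10600001-14400000 with 8055 H3KAc and 734 IgG positions and a ratio of 1.06, then chr1:147401001-151201000 with 8331 and 856 and a ratio of 0.937, and chr5:56200001-60000000 with 8440 and 911 and a ratio of 0.892. The ratio was thus below 1 in 4 of these 5 segments. The array ratio of 0.855 was above that of 27 of the other segments and below that of 590. These autosomal comparisons were added after the data were seen.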
